A study of Mus musculus with 137 samples.

Results

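The genes described here are those of the proteasome. They were chosen by symbol, as every gene whose name starts with Psm, one of the letters a to g and a number, and each was represented by its probe with the highest total count. The rule used no measured difference. It found 50 of the 21450 genes measured, and all 50 passed the count filter of the test. There were 16 genes of the core particle (Psma and most Psmb), 3 immunoproteasome catalytic subunits (Psmb8, Psmb9, and Psmb10), 20 genes of the regulatory particle (Psmc and Psmd), 5 activators (Psme), 1 inhibitor (Psmf1), and 4 assembly chaperones (Psmg). The 20 include Psmd5, Psmd9, and Psmd10, assembly chaperones of the regulatory particle's base, which were grouped with it by symbol. The remaining match, Psmc3ip, encodes a recombination factor and not a proteasome protein, and it came in by name alone. Of the 50 genes, 31 had 1 probe, 16 had 2, and 3 had 3.

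The RNA came from formalin-fixed, paraffin-embedded duodenum of female wildtype B6C3F1 mice (Charles River), from which crypt and villus were microdissected. The mice drank water with 0, 0.1, 1.4, 5, 20, 60, or 180 ppm Cr(VI), supplied as sodium dichromate dihydrate and taken ad libitum, for 7 or 90 days (called day 8 and day 91 below). Crypt libraries came from 71 mice, and 66 of these mice also gave a villus library. Each of the 28 groups held 5 libraries, except for 6 at 0.1 ppm in day 8 crypt and 4 in untreated day 91 villus and in day 8 villus at 5, 20, and 180 ppm. Mouse 90, in the day 8 group at 0.1 ppm, has a number far from the other mice of that group (126 to 130) and was kept where its labels put it. Expression was measured by TempO-Seq, in which paired detector oligonucleotides are ligated on their target RNA and counted by sequencing, so a value is the number of reads of a probe. Levels are given as CPM, counts scaled to an equal library total of 1e+06. A probe's efficiency is its own, so CPM can be compared between libraries for one gene but not between genes.

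Proteasomes degrade proteins marked with ubiquitin. The barrel-shaped core has outer rings of alpha subunits and inner rings of beta subunits, of which Psmb5, Psmb6, and Psmb7 carry the standard active sites. A regulatory cap, made of ATPases, scaffolds, ubiquitin receptors, and lid subunits, binds ubiquitinated proteins, unfolds them, and feeds them into the core. Interferon-gamma induces the alternative catalytic subunits Psmb8, Psmb9, and Psmb10, which replace Psmb5, Psmb6, and Psmb7 in newly built cores, and the activator PA28 made of Psme1 and Psme2. These forms produce peptides for presentation by MHC class I. The duodenal epithelium also harbors many lymphocytes, which hold much immunoproteasome, and in bulk samples fewer cells of a type and less RNA per cell cannot be told apart.

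Promoters of 6 members are shown, Psme2 called lower and the others called higher in some comparison with untreated mice (below). They are from RefSeq on GRCm38.p6, run 5′ to 3′ on the gene's own strand, and end at the base before the transcription start except for Psme2, whose stretch ends 13 bases before it. Capitals mark the motif nearest to the start among those searched. In Psmb6, a standard catalytic subunit, they mark TGACGGAGC, a match to the antioxidant response motif TGACNNNGC. In Psmd2, Psmd11, and Psmg1 they mark the ETS motif CCGGAAG, which reads CTTCCGG on the other strand. In Psmd14, the lid deubiquitinase, they mark GCGCGTGCGC, a match on the other strand to the NRF1 motif, GCGCA and GCGC with 1 base between them. None of the motifs was found in the stretch of Psme2, the PA28 beta subunit.
Psmb6 (chr11:70525207-70525356, plus strand): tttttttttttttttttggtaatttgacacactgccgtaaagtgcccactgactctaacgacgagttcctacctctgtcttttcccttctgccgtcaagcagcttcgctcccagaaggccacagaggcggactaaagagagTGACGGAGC
Psmd2 (chr16:20651502-20651651, plus strand): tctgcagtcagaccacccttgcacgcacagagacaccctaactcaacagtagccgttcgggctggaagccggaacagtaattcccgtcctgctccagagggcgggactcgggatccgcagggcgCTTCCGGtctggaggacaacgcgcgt
Psmd11 (chr11:80428465-80428614, plus strand): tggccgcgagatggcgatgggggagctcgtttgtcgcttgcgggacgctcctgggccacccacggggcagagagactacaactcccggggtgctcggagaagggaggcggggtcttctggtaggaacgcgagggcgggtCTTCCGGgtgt
Psmd14 (chr2:61711544-61711693, plus strand): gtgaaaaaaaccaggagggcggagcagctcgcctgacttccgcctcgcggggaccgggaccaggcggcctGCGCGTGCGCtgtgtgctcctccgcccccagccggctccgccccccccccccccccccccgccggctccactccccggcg
Psmg1 (chr16:95990961-95991110, minus strand): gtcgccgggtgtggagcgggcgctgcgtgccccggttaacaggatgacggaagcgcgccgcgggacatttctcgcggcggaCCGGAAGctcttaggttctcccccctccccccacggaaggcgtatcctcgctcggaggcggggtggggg
Psme2 (chr14:55591114-55591263, minus strand): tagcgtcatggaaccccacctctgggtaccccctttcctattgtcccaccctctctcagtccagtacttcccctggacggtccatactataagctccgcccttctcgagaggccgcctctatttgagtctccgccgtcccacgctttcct

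Over the 250 bases before the start, with both strands searched, the ETS motif was present in 12 of the 42 members that had a promoter sequence (28.6%) and in 10.4% of the 14182 tested genes that had one. The NRF1 motif was present in 6 members (14.3%) and in 6.16% of all genes. Psmd12, Psmd2, and Psmd6 of the lid and base were among the ETS matches, whereas Psma2, Psma3, Psma4, Psmc4, Psmc5, and Psmd14 held the NRF1 match. The antioxidant response motif was found in 5 members (11.9%, with 10.9% of all genes), namely Psmb5, Psmb6, Psmc6, Psmd12, and Psmd9. CCAAT was found in 15 members (35.7%, with 36% of all genes). The interferon motifs (GAAA and GAAA with 2 bases between them, and TTCNNNGAA) were found in 3 members (7.14%, with 3.01%) and in 2 members (4.76%, with 6.61%), and of the immunoproteasome and PA28 genes only Psmb8 held one of them, TTCNNNGAA. The NF-kappaB motif, GGGA and TTTCC with 1 base between them, was found in 0 of the 42 members and in 0.374% of all genes. These matches describe letters in a window, not binding.

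Library totals ranged from 1463938 to 7199801 counts (median 3592983), and the members' main probes collected from 368 counts over all libraries (Psmb11, the thymus catalytic subunit) to 259482 (Psmd8, of the lid). The median member had 16596 counts and the median tested gene 2471.5. Of the members, 27 were in the 25% of genes with the highest total count. The shares of all genes called that are given below were not matched for count. Whether members were called more often than other genes of similar count was not tested. Some libraries stood apart. In day 8 untreated mice, markers of crypt summed to 12100 CPM and markers of villus to 19210 CPM in the villus of mouse 48, whereas the other untreated villi had 1355 to 5387 and 43420 to 57610. In the crypt of mouse 49 they summed to 1596 and 40150 CPM, whereas the other untreated crypts had 5616 to 20050 and 15060 to 18850. Summed markers of pancreatic acinar cells, which lie next to the duodenum, ranged from 2.737 to 155000 CPM among libraries. The 4 untreated villi of day 91 were shallow (1667014 to 2678299 counts) and, at equal depth, held 13071 to 15722 detected probes, with group medians of 17695 to 18807 in the day 91 villi at 5 to 180 ppm. The counts at 60 and 180 ppm that rest on mice 48 and 49, and those of day 91 villi at 5 to 180 ppm, are given below without these mice or against another baseline.

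**Figure D1:**
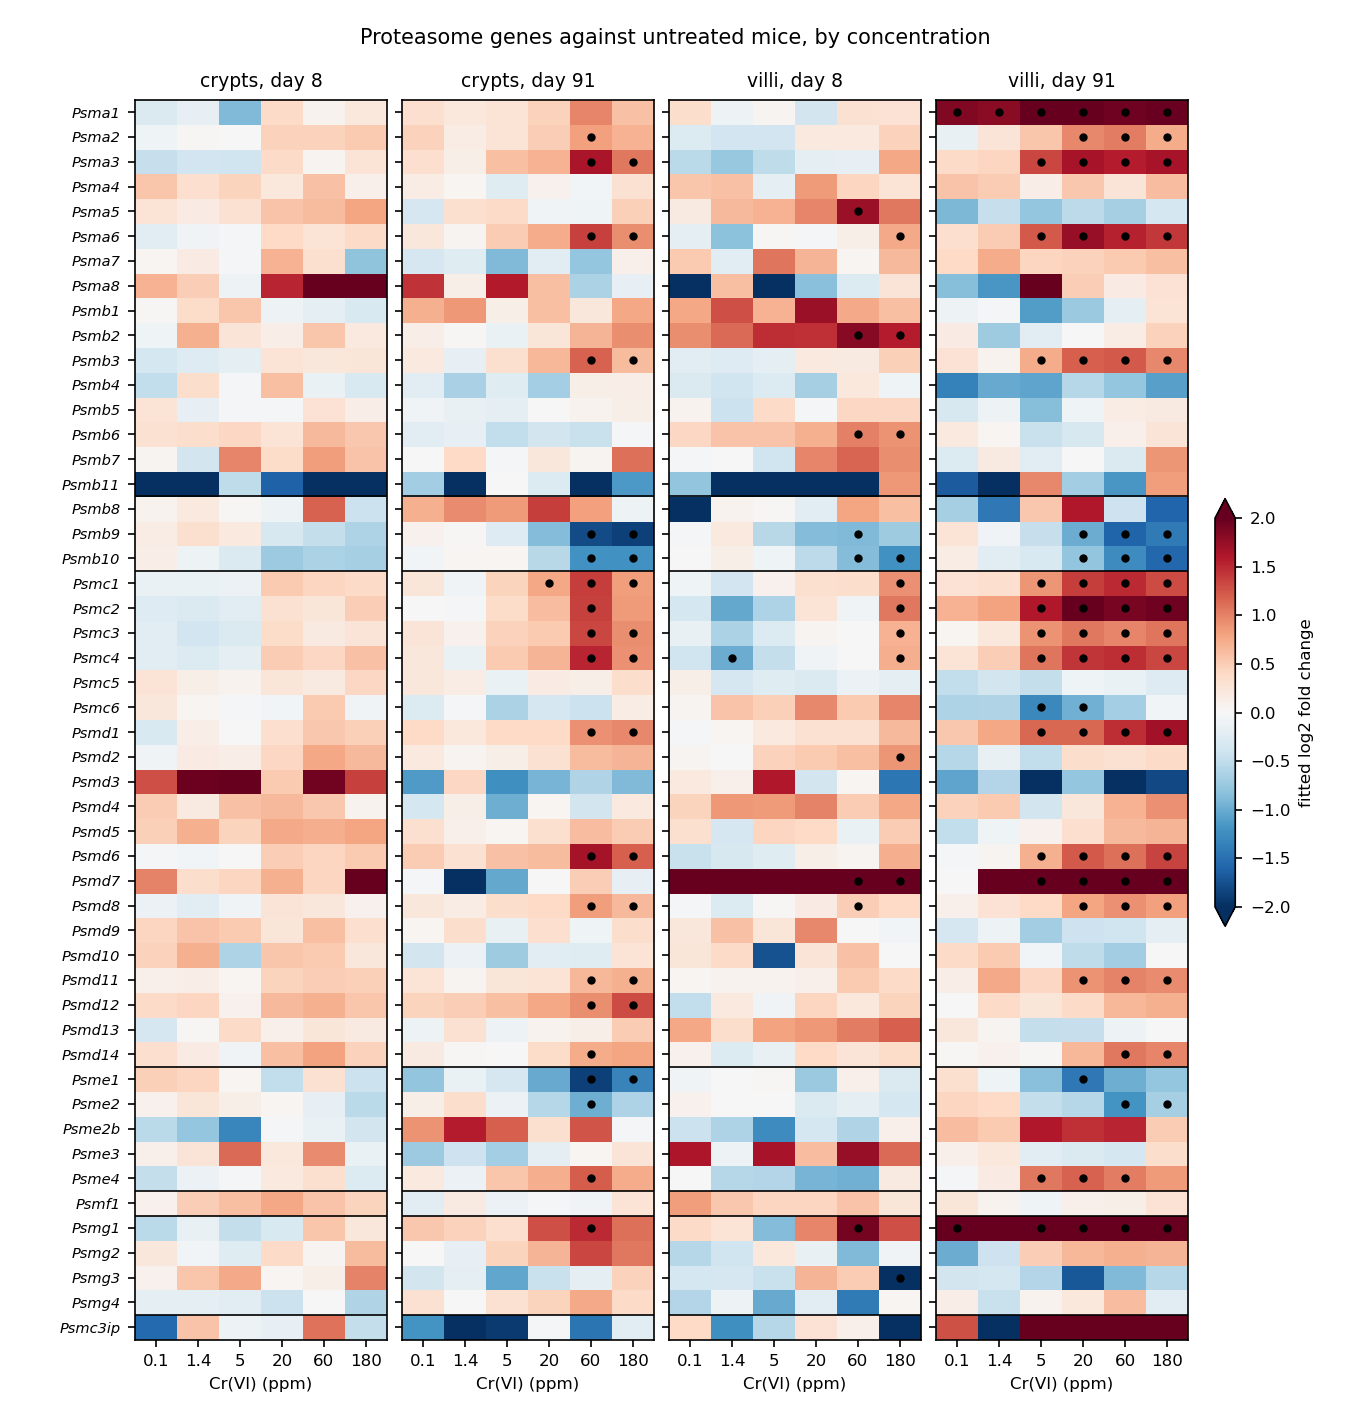
Log2 fold change against untreated mice of each of the 50 members (rows, grouped by particle) at each Cr(VI) concentration in ppm (columns) in crypt and villus on days 8 and 91; the color scale ends at -2 and 2, and dots mark differences with an adjusted p under 0.1. At 180 ppm on day 91 the dots of core and regulatory genes are all on red, 11 in crypts and 15 in villi, whereas those of Psmb9, Psmb10, Psme1, and Psme2 are on blue.

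In crypts on day 91, genes of the core and of the regulatory particle rose and immunoproteasome and PA28 genes fell at 60 and 180 ppm (as the heat map of the members by dose shows). A difference was called at an adjusted p under 0.1 in edgeR's quasi-likelihood test over 26365 probes. The shares called are of the 18998 tested genes by their main probe, which were not matched to the members for count. At 180 ppm, 11 members rose and 3 fell, where 2.57% of all genes were called higher and 1.57% lower (4.15% in all). The 11 were 3 of the 16 core genes and 8 of the 20 regulatory genes, and none of those 36 genes fell. The 3 that fell were Psmb9, Psmb10, and Psme1. At 60 ppm, 16 members rose and 4 fell, with 7.94% of all genes called higher and 2.09% lower (10% in all): 4 core genes, 10 regulatory genes, the activator Psme4 (PA200), and the chaperone Psmg1 rose, and Psmb9, Psmb10, Psme1, and Psme2 fell. The median log2 fold change of the members was 0.47 at 180 ppm and 0.36 at 60 ppm, and that of all tested genes was 0 and 0.16. With size factors by DESeq2's method in place of TMM, every fold change at 60 ppm shifted by a median of -0.28 and the counts were 9 higher and 5 lower, and at 180 ppm they shifted by -0.12 and the counts were 9 higher and 4 lower. No called member changed direction.

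Psmd6, a lid subunit (chr14:14112174-14120984 on GRCm38), had 94.6, 121, 124, 136.9, and 149.7 CPM in the untreated day 91 crypts and 206, 239, 314, 329, and 340.0 CPM at 180 ppm. The groups did not overlap. The log2 fold change was 1.19 ± 0.25 (SE, n = 5 and 5, adjusted p = 0.00118), and at 60 ppm it was 1.66 ± 0.26 (adjusted p = 1.32e-06). Psmc1, an ATPase of the base (chr12:100110154-100123405), had 189, 198, 203, 218, and 226 CPM in untreated crypts and 278, 288, 385, 409, and 485 CPM at 180 ppm. Every exposed crypt was above every untreated crypt. Its log2 fold change was 0.83 ± 0.20 (adjusted p = 0.00523) at 180 ppm. Psmc1 was higher still at 60 ppm, with 465, 536, 537, 562, and 596 CPM and a log2 fold change of 1.38 ± 0.20 (adjusted p = 3.2e-07).

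The other regulatory genes that rose at 180 ppm were the ATPases Psmc3 (0.92, adjusted p = 0.00177) and Psmc4 (0.91, adjusted p = 0.0109), the base scaffold Psmd1 (0.96, adjusted p = 0.0486), and the lid subunits Psmd8 (0.64, adjusted p = 0.00853), Psmd11 (0.72, adjusted p = 0.0426), and Psmd12 (1.30, adjusted p = 0.00566), as log2 fold changes. Among core genes, the alpha subunits Psma3 (1.06, adjusted p = 0.0125) and Psma6 (0.93, adjusted p = 0.0142) rose, as did Psmb3 (0.63, adjusted p = 0.0685), a beta subunit without an active site. The 3 standard catalytic genes were not called. Psmb6 had 188, 283, 291, 305, and 354 CPM in untreated crypts and 189.8, 249, 262, 274, and 416 CPM at 180 ppm, a log2 difference of -0.03 ± 0.21 (adjusted p = 1). Psmb5 differed by 0.12 ± 0.34 (adjusted p = 0.989) and Psmb7 by 1.10 ± 0.93 (adjusted p = 0.7). Psmb7 had at most 26.3 CPM in the untreated and 180 ppm libraries of either compartment.

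The immunoproteasome gene Psmb9 (chr17:34181987-34187764) had 103, 107, 107, 158, and 174 CPM in untreated day 91 crypts and 27.3, 27.9, 32.4, 34.2, and 56.4 CPM at 180 ppm. The exposed crypts were all lower. Its log2 fold change was -1.87 ± 0.29 (adjusted p = 2.24e-06), the smallest adjusted p among the members in that comparison. Psmb10 (chr8:105935735-105938444) had 73.7, 82.0, 96.4, 102, and 108 CPM in untreated crypts and 30.7, 34.1, 43.3, 43.5, and 48.2 CPM at 180 ppm. These groups did not overlap either, and the log2 fold change was -1.21 ± 0.24 (adjusted p = 0.000398). At 60 ppm, the log2 fold changes of Psmb9 and Psmb10 were -1.78 ± 0.29 (adjusted p = 2.99e-06) and -1.21 ± 0.24 (adjusted p = 0.000144).

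Psmb8 (chr17:34197721-34201454), the third inducible subunit, was near the floor of detection. It had 0, 0, 1.30, 2.46, and 2.50 CPM in untreated day 91 crypts and 0, 0, 0.69, 2.50, and 2.69 CPM at 180 ppm, a log2 difference of -0.10 ± 1.45 (adjusted p = 1). It was not called at 180 ppm in the other sets, and in day 91 villi its difference of -1.58 ± 1.57 (adjusted p = 0.579) became -6.386 (adjusted p = 0.0518) without mouse 483, the only exposed villus in which it was counted, and 4.845 (adjusted p = 0.262) without mouse 5, the only such untreated villus. Psme1 (chr14:55578123-55581529), PA28 alpha, had 7.86, 18.8, 35.1, 44.6, and 51.7 CPM in untreated crypts and 8.46, 9.92, 10.3, 13.1, and 20.8 CPM at 180 ppm. The groups overlapped, with 2 of the 5 untreated crypts below the highest exposed one. Its log2 fold change was -1.34 ± 0.41 (adjusted p = 0.0537), and the call was lost in 6 of the 10 fits that left out 1 mouse. Psme2 (chr14:55587441-55591113), PA28 beta, had 64.4, 80.3, 106, 145, and 154 CPM in untreated crypts and 54.1, 68.8, 72.6, 78.0, and 87.0 CPM at 180 ppm, a log2 difference of -0.61 ± 0.24 (adjusted p = 0.194). At 60 ppm Psme1 and Psme2 fell, with log2 fold changes of -1.86 ± 0.42 (adjusted p = 0.000968) and -0.98 ± 0.24 (adjusted p = 0.00217). Psme3 (PA28 gamma), which forms a separate activator, and the inhibitor Psmf1 were not called against untreated mice in any set.

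**Figure D2:**
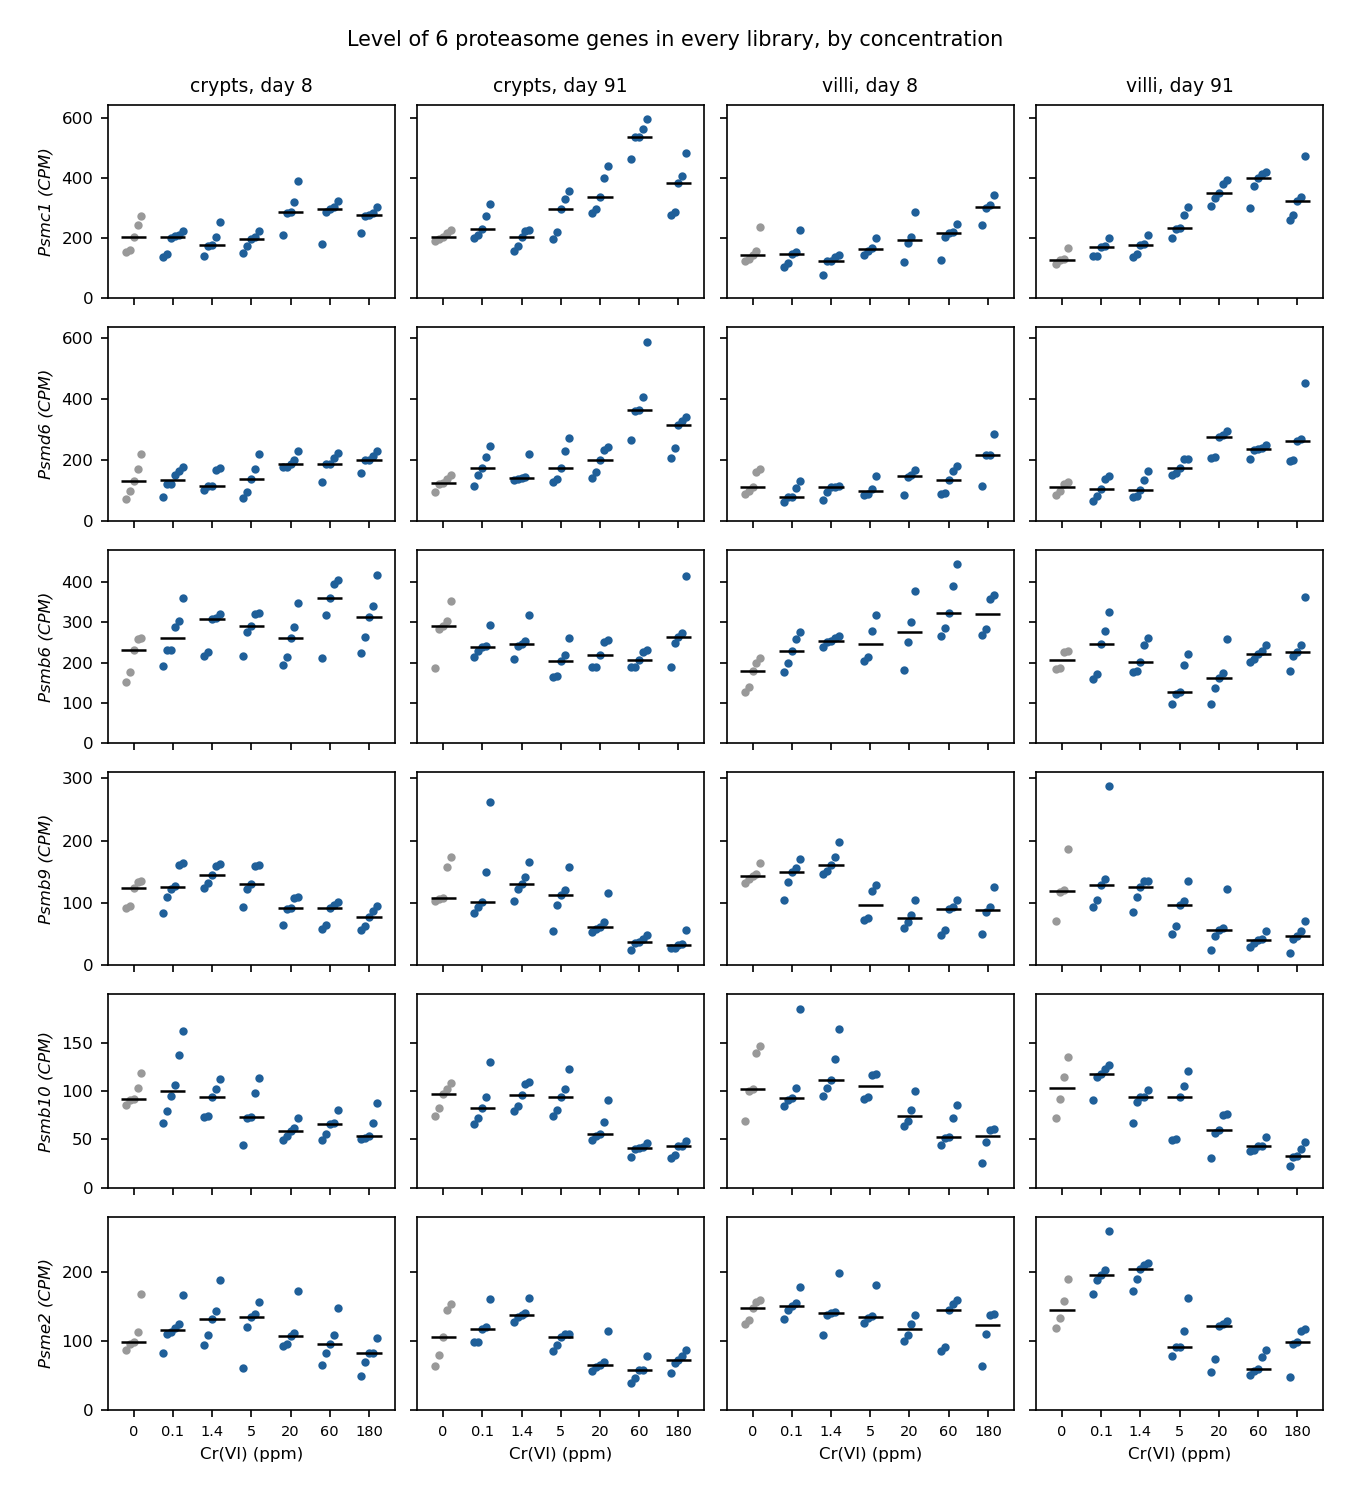
CPM (linear axis from 0) of every library against Cr(VI) concentration in ppm for Psmc1, Psmd6, Psmb6, Psmb9, Psmb10, and Psme2 in crypt and villus on days 8 and 91; points are libraries, gray for untreated mice, and bars are group medians. In day 91 crypts, Psmc1 reached its highest median at 60 ppm (536.7 CPM, with 202.9 in untreated mice), whereas Psmb9 had medians of 37.32 CPM at 60 ppm and 32.37 at 180 ppm, with 107.4 in untreated mice.

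At lower concentrations in day 91 crypts, 1 member rose at 20 ppm, where 0.242% of genes were called (0.168% higher and 0.0737% lower). It was Psmc1, with 286, 297, 338, 401, and 442 CPM, all above the untreated crypts (log2 fold change 0.77 ± 0.20, adjusted p = 0.0913), and the call was lost in each of the 10 fits that left out 1 mouse. The alternatives called 0 to 16 members at 20 ppm, 6 with DESeq2 and 16 when each compartment and day was fitted alone. Median Psmb9 was 60.67 CPM at 20 ppm. At 0.1, 1.4, and 5 ppm, edgeR called 0 members (0% of genes). An unadjusted p under 0.05 was found for 1, 1, and 8 members and for 1768, 2020, and 2571 of all 26365 probes. DESeq2 and the other alternatives called 0 or 1 member there.

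In villi on day 91, genes of the core and of the regulatory particle rose at 5 to 180 ppm, and 3 of the 5 immunoproteasome and PA28 genes fell at 20, 60, and 180 ppm and 0 at 5 ppm. At 180 ppm, 16 members rose and 3 fell, where 10.5% of genes were called higher and 4.44% lower (14.9% in all). Those that rose were 5 core genes, 10 regulatory genes, and the chaperone Psmg1, and those that fell were Psmb9, Psmb10, and Psme2. At 60 ppm, 17 rose and 3 fell (15.5% of genes called, 11.6% higher and 3.85% lower), and at 20 ppm 16 rose and 4 fell (15.8%, 12.4% higher and 3.46% lower). At 5 ppm, 13 rose and 1 fell, where 9.82% of genes were called higher and 2.71% lower (12.5%). The median log2 fold change of the members was 0.61, 0.41, 0.36, and 0.11 at 180, 60, 20, and 5 ppm, and that of all tested genes was 0.18, 0.32, 0.45, and 0.58. At 5 and 20 ppm the members' median was thus below that of all genes. With DESeq2's size factors, fold changes shifted by medians of -0.26, -0.37, -0.31, and -0.11, and the counts were 15 higher and 3 lower, 15 and 5, 15 and 6, and 11 and 5.

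Because the untreated day 91 villi were shallow and held fewer detected probes, the 0.1 and 1.4 ppm villi were also taken as the baseline, an alternative added after the data were seen. With it, 21 members rose and 4 fell at 180 ppm, Psmb9 (-1.51, adjusted p = 3.05e-06) and Psmb10 (-1.54, adjusted p = 2.5e-08) among them. At 60, 20, and 5 ppm, 20 rose and 4 fell, 18 rose and 5 fell, and 14 rose and 5 fell against that baseline. With the number of detected probes as a covariate, 13 rose and 2 fell at 180 ppm, 13 and 3 at 60 ppm, 11 and 1 at 20 ppm, and 2 and 0 at 5 ppm. The count of 14 members at 5 ppm thus fell to 2 with that covariate. The share of all genes called was not counted in these fits, so the members' counts cannot be set against it. The part of the detected probes in the differences was not tested beyond these fits.

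Psmb9 had 71.3, 117, 121, and 187 CPM in untreated day 91 villi and 19.01, 42.1, 47.0, 55.5, and 70.5 CPM at 180 ppm. The exposed villi were all below the untreated ones, though the highest exposed and the lowest untreated library nearly touched. The log2 fold change was -1.41 ± 0.30 (n = 5 and 4, adjusted p = 0.000266). Psmb10 had 71.7, 91.2, 115, and 135 CPM in untreated villi and 22.1, 31.4, 32.7, 39.6, and 47.5 CPM at 180 ppm. These groups stood clearly apart, with a log2 fold change of -1.57 ± 0.25 (adjusted p = 1.37e-06). Psme2 had 119.6, 134, 158, and 190.0 CPM in untreated villi and 48.0, 96.1, 98.95, 115, and 118 CPM at 180 ppm, just below the untreated range. It fell by 0.66 on the log2 scale (SE 0.25, adjusted p = 0.0776), and the call was lost in 5 of the 9 fits that left out 1 mouse. Psme1 had 11.6, 28.4, 32.1, and 39.4 CPM and then 11.1, 12.6, 14.7, 20.8, and 22.8 CPM, a difference that was not called at 180 ppm (adjusted p = 0.243).

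Psmc1 had 115, 128, 130.3, and 168 CPM in untreated day 91 villi and 259.8, 277, 326, 337, and 472 CPM at 180 ppm. All exposed villi were higher. The log2 fold change was 1.31 ± 0.22 (adjusted p = 2.97e-06), and median Psmc1 was 235.2 CPM at 5 ppm and 352.2 CPM at 20 ppm. Psmd6 had 85.2, 98.3, 121, and 128 CPM in untreated villi and 195, 201, 260.4, 270.0, and 453 CPM at 180 ppm, again without overlap (1.35 ± 0.28, adjusted p = 0.000171). The ATPases Psmc2 (1.95, adjusted p = 6.22e-05), Psmc3 (1.07, adjusted p = 0.000191), and Psmc4 (1.34, adjusted p = 4.23e-05), the scaffold Psmd1 (1.68, adjusted p = 6.12e-05), and the deubiquitinase Psmd14 (0.98, adjusted p = 0.0215) rose by these log2 fold changes. The lid subunit Psmd7 had 47 counts over the 5 exposed libraries and 0 over the 4 untreated ones, at least 6.77-fold higher when the untreated group is set at a floor of 3 counts over the group. Those 47 counts came from 3 of the 5 libraries, and at 5 ppm, where Psmd7 was also called, its 34 counts came from 1 library.

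Psmg1 (chr16:95979933-95990960), a chaperone that helps the alpha ring to assemble, had 0, 0, 0, and 5.80 CPM in untreated day 91 villi and 25.2, 30.9, 34.5, 36.9, and 51.8 CPM at 180 ppm. The groups did not overlap. Its fitted log2 fold change was 4.73 ± 0.74 (adjusted p = 7.79e-07), the smallest adjusted p of the members there, and it was 2.173 (adjusted p = 0.00013) against the 0.1 and 1.4 ppm villi. Without mouse 5, the only untreated villus with counts, it was 10.059, a value that depends on the prior count because the untreated group is then at 0. The alpha ring gene Psma1 also had low values in untreated day 91 villi, 3.17, 7.98, 24.1, and 25.2 CPM, and it had 45.3, 47.7, 65.1, 68.6, and 75.0 CPM at 180 ppm. Psma1 was called higher at all 6 concentrations in day 91 villi, from 1.86 ± 0.46 at 0.1 ppm (adjusted p = 0.0683) to 1.97 ± 0.46 at 180 ppm (adjusted p = 0.00139), yet it was not called against the 0.1 and 1.4 ppm villi, whose medians were 54.9 and 54.73 CPM. At 0.1 ppm, 2 members were called (Psma1 and Psmg1, with 0.337% of genes called, 0.258% higher and 0.079% lower), and at 1.4 ppm 1 was (Psma1, with 0.258% called, 0.211% higher and 0.0474% lower). With 1 mouse left out these counts ran from 0 to 2 (under 2 in 8 of the 9 fits) and from 0 to 1 (0 in 5 of the 9 fits, those without mice 3, 161, 162, 163, and 164), and the count at 0.1 ppm was 0 without mouse 3 and 1 without mouse 5, 6, 7, 81, 82, 84, or 85. Over the alternatives both ran from 0 to 2.

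The standard catalytic genes were not called in day 91 villi. Psmb6 had 183, 187, 227, and 229.8 CPM in untreated villi and 180.0, 216, 227, 243, and 363 CPM at 180 ppm (log2 difference 0.25 ± 0.23, adjusted p = 0.516). Psmb5 had 23.0, 23.0, 33.4, and 81.8 CPM and then 30.4, 36.3, 36.9, 52.8, and 70.0 CPM (0.18 ± 0.36, adjusted p = 0.864). The only core or regulatory gene that fell in day 91 villi was Psmc6, an ATPase of the base, at 5 ppm (-1.29 ± 0.36, adjusted p = 0.0138) and at 20 ppm (-0.97 ± 0.35, adjusted p = 0.064).

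In villi on day 8, 9 members rose and 2 fell at 180 ppm, where 2.11% of genes were called higher and 3.02% lower (5.13% in all). Of the 9, 3 were core genes and 6 regulatory genes, and the 2 that fell were Psmb10 and the chaperone Psmg3. Psmg3 had 0 counts in the 4 exposed libraries and 46 counts in 2 of the 5 untreated ones, at least 11.6-fold lower with a floor of 3 counts over the group. The median log2 fold change was 0.47 for the members and -0.08 for all tested genes. Without mice 48 and 49, whose untreated libraries stood apart, 6 members were called (5 higher and 1 lower), and without mouse 528, at 180 ppm, 3 were. One of the 6 regulatory genes was Psmd7, whose 22 counts at 180 ppm came from 1 library, with 0 in the 5 untreated villi.

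Psmb6 had 128, 138, 179, 198, and 212 CPM in untreated day 8 villi and 269, 283, 357, and 368 CPM at 180 ppm. The exposed villi were all higher. Its log2 fold change was 0.90 ± 0.22 (n = 4 and 5, adjusted p = 0.00649), and it was 1.0 ± 0.21 at 60 ppm (adjusted p = 0.00117). Against the 0.1 and 1.4 ppm villi, whose medians were 228 and 253 CPM, the difference at 180 ppm was 0.41 (adjusted p = 0.163). Psmb10 had 69.3, 100.2, 102, 139, and 146 CPM in untreated villi and 25.7, 46.8, 59.7, and 60.4 CPM at 180 ppm, without overlap (-1.21 ± 0.26, adjusted p = 0.00104). Psmb9 had 132, 139, 144, 146, and 163 CPM in untreated villi and 49.8, 85.2, 92.8, and 126 CPM at 180 ppm. Its groups did not overlap either, but the difference of -0.71 ± 0.30 did not pass the test (adjusted p = 0.174). The base ATPase Psmc1 had 126, 129.8, 145, 157, and 238 CPM, the last in mouse 48, and then 243, 301, 309, and 344 CPM (0.91 ± 0.21, adjusted p = 0.00282). Psmd2 (chr16:20651652-20663414), a scaffold of the base, had 49.0, 54.2, 57.0, 65.6, and 67.6 CPM and then 76.3, 102, 124, and 128 CPM (0.88 ± 0.26, adjusted p = 0.042).

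At 60 ppm in day 8 villi, 6 members rose and 2 fell, with 2.51% of genes called higher and 4.11% lower (6.62%). Psmb6, Psmb2, and Psma5 of the core, Psmd7 and Psmd8 of the lid, and Psmg1 rose, and Psmb9 (-0.88 ± 0.28, adjusted p = 0.056) and Psmb10 (-0.87 ± 0.24, adjusted p = 0.0207) fell. Psmd7 had 54 counts there, from 2 of the 5 libraries, and 0 in untreated villi. The count of 8 was 4 without mice 48 and 49 (3 higher and 1 lower), 5 without mouse 448 or 449, and 2 to 12 over the alternatives. At 1.4 ppm, 0.921% of genes were called (0.105% higher and 0.816% lower), and 1 member, the ATPase Psmc4 (chr7:28041707-28050101), was lower, with 84.6, 114, 151, 161, and 203 CPM against 176, 226, 321, 321, and 372 CPM in untreated villi. Psmc4 was the only member called in both directions over the comparisons with untreated mice, higher in 7 and lower in this one. The count at 1.4 ppm ran from 0 to 6 over the alternatives and was 0 without mouse 209, 2 without 210, 3 without 207 or 49, and 4 without 50. At 0.1, 5, and 20 ppm, 0%, 0.347% (0.0421% higher and 0.305% lower), and 1.49% (0.521% and 0.969%) of genes were called. There edgeR called 0 members, and the alternatives called 0 to 4. An unadjusted p under 0.05 was found for 5, 6, and 10 members and for 3404, 4824, and 5536 of all 26365 probes.

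In crypts on day 8, edgeR called 0 members at any concentration. At 180 ppm, 3.36% of genes were called (0.553% higher and 2.81% lower), and DESeq2 called 9 members (8 higher and 1 lower). There 10 members and 4674 of all 26365 probes had an unadjusted p under 0.05. Psmd2 had 52.4, 62.0, 63.3, 65.9, and 72.8 CPM in untreated crypts and 84.2, 98.2, 101, 106, and 109 CPM at 180 ppm. These groups did not overlap, yet the difference did not pass the test (0.65 ± 0.25, adjusted p = 0.189). Psmb10 had 85.4, 91.1, 91.8, 103, and 119 CPM and then 50.3, 51.7, 53.4, 67.1, and 87.8 CPM (-0.66 ± 0.24, adjusted p = 0.154), and Psmb9 had 92.1, 94.6, 124, 134, and 135 CPM and then 56.5, 63.6, 77.04, 86.5, and 95.3 CPM (-0.61 ± 0.28, adjusted p = 0.233). Psmb6 differed by 0.53 ± 0.21 (adjusted p = 0.202). Against the 0.1 and 1.4 ppm crypts, 8 members were called higher and 3 lower at 180 ppm, the 3 being Psmb9, Psmb10, and Psme2. At 60 ppm 1.45% of genes were called (0.384% higher and 1.07% lower), at 20 ppm 0.137% (0.0105% and 0.126%), and at the lower concentrations 0%. At 20 and 60 ppm, 8 members each had an unadjusted p under 0.05, as did 2863 and 3914 probes, and the alternatives called 0 to 4. At 0.1, 1.4, and 5 ppm, 1, 0, and 1 member had one, as did 2846, 2850, and 3178 probes, and the alternatives called 0.

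Across the 24 comparisons with untreated mice, 21 members were called only higher, 6 only lower, 1 both ways, and 22 never. The share of all tested genes called at least once was not counted, so these counts cannot be set against it. The genes called only lower were Psmb9 (6 comparisons), Psmb10 (7), Psme1 (3), Psme2 (3), Psmc6 (2), and Psmg3 (1). Psmc1 was called higher in 8 comparisons, and Psma6, Psmc3, Psmc4, and Psmg1 in 7 each. Over the 36 core and regulatory genes at 180 ppm, the median log2 fold change was 0.39 in day 8 crypt, 0.61 in day 91 crypt, 0.65 in day 8 villus, and 0.73 in day 91 villus, and with DESeq2's size factors it was 0.48, 0.48, 0.64, and 0.46. Over the 5 immunoproteasome and PA28 genes, Psmb8, Psmb9, Psmb10, Psme1, and Psme2, it was -0.53, -1.21, -0.35, and -1.41. These comparisons share untreated libraries within a compartment and day.

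The balance between an inducible subunit and the standard subunit it replaces was followed in each library as the log2 ratio of Psmb9 to Psmb6, with 1 CPM added to each. The level of the ratio has no meaning across probes, but its change does. In day 91 crypts it was -1.13 ± 0.43 (SD, n = 5) in untreated mice, -1.66 ± 0.57 at 20 ppm, -2.46 ± 0.44 at 60 ppm, and -2.94 ± 0.68 at 180 ppm. In day 91 villi it was -0.80 ± 0.70 (n = 4) in untreated mice and -2.44 ± 0.87 (n = 5) at 180 ppm. On day 8 it was -0.88 ± 0.15 in untreated crypts and -2.02 ± 0.58 at 180 ppm, and -0.21 ± 0.31 in untreated villi and -1.90 ± 0.71 (n = 4) at 180 ppm. Every library at 180 ppm had a lower ratio than every untreated library of its set, except in day 91 villi, where the ranges overlapped. The other inducible subunits have few counts in one partner, and their ratios varied more. The ratio of Psmb10 to Psmb7 was 4.23 ± 1.48 in untreated day 91 crypts and 1.59 ± 0.53 at 180 ppm, and 4.73 ± 2.28 and 1.37 ± 1.24 in day 91 villi. On day 8 it was 4.46 ± 1.37 and 3.32 ± 1.60 in crypts and 5.25 ± 2.41 and 2.71 ± 2.23 in villi, with overlapping ranges. The ratio of Psmb8 to Psmb5 changed by less than the SD of either group, from -4.51 ± 0.76 to -4.74 ± 0.91 in day 91 crypts, from -4.25 ± 1.05 to -4.97 ± 0.78 in day 91 villi, from -3.74 ± 1.04 to -4.29 ± 1.49 in day 8 crypts, and from -3.28 ± 1.22 to -3.32 ± 1.82 in day 8 villi.

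**Figure D3:**
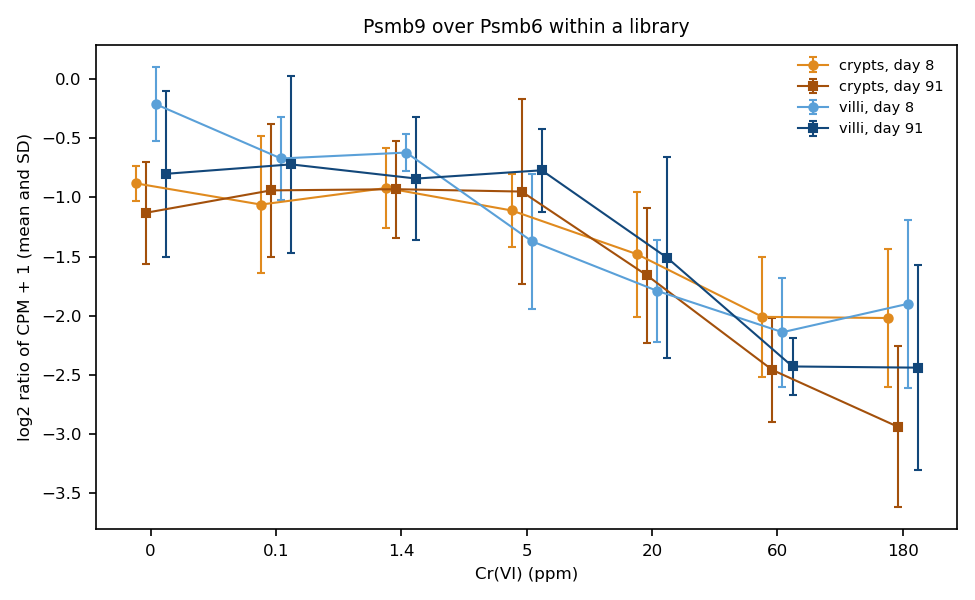
Log2 ratio of Psmb9 to Psmb6 (CPM plus 1) within a library against Cr(VI) concentration in ppm in crypt and villus on days 8 and 91; points are group means and bars are SD. In day 91 crypts the mean was -1.13 in untreated mice and -2.94 at 180 ppm.

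Markers of immune cells were read from a fixed list of 14 genes. For this list and those below, the shares of all genes called at 180 ppm apply. They were 0.553% higher and 2.81% lower in day 8 crypts and 2.57% and 1.57% in day 91 crypts. In villi they were 2.11% and 3.02% on day 8 and 10.5% and 4.44% on day 91. At 180 ppm, 7 of the 14 fell in day 8 crypts, 7 in day 8 villi, and 5 each in day 91 crypts and villi, where Jchain (1.59) and Lyz2 (2.37) rose in villi by these log2 fold changes. The T cell and granzyme genes Cd3e, Cd3g, Gzma, and Gzmb and the antigen-presenting cell gene Cd74 were the 5 in each compartment on day 91, with Gzma at -2.89 in crypt and -2.59 in villus. The summed level of the list, from lowest to highest library with the median between, was 1672, 2683, and 2937 CPM in untreated day 8 crypts and 466.3, 687.4, and 3178 at 180 ppm. In day 8 villi it was 2262, 2952, and 3387 CPM in untreated mice and 810.2, 1322, and 2199 at 180 ppm. On day 91 the sums overlapped widely, with 1221, 2404, and 2706 CPM in untreated crypts and 1005, 1995, and 2525 at 180 ppm, and with 1918, 2449, and 3582 CPM in untreated villi and 1979, 2596, and 3938 at 180 ppm. Cd8a was at 0 in all 5 crypts and all 4 villi of day 8 at 180 ppm. The part of these cells in the lower Psmb9, Psmb10, Psme1, and Psme2 values was not tested. Villus markers also fell at 180 ppm, 6 of 10 in day 8 crypts, 3 in day 91 crypts, and 4 in villi on each day. Of the 10 crypt markers, 0 were called in crypts, 1 was lower in day 8 villi (Mmp7), and in day 91 villi 1 was lower (Mmp7) and 1 higher (Ephb2). Some that were not called still differed in their means, Mki67 with 45.31 and 86.54 CPM in untreated and 180 ppm crypts of day 8, Ephb2 with 54.57 and 110.8 CPM in those of day 91, and Lyz1 with 1063 and 409.6 CPM and Defa22 with 3338 and 1140 CPM in villi of day 8. Of the 5 smooth muscle markers, 3 fell in day 91 villi, and none of the 9 pancreatic acinar markers tested was called at 180 ppm.

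Genes of MHC class I antigen processing, the pathway that the immunoproteasome serves, were read from a list of 12 genes. At 180 ppm, 3 fell in day 8 crypts, 4 fell and 2 rose in day 91 crypts, 3 fell and 2 rose in day 8 villi, and 6 fell and 3 rose in day 91 villi. In day 91 villi, the peptide transporter Tap2 (-2.85 ± 0.46 on the log2 scale, adjusted p = 1.77e-06) and the heavy chain H2-D1 (-2.174 ± 0.36, adjusted p = 2.89e-06) fell. In day 91 crypts, Tap2 (-2.14, adjusted p = 0.000737) and H2-D1 (-1.65, adjusted p = 0.000857) fell too. On day 8, H2-K1 (-1.18, adjusted p = 9.48e-06 in crypt, and -1.44, adjusted p = 1.72e-06 in villus) and the light chain B2m (-1.13, adjusted p = 0.0123, and -1.70, adjusted p = 0.000152) fell. The members that rose, Pdia3, Calr, and Canx, are chaperones of the endoplasmic reticulum that fold many proteins besides MHC class I. The median log2 fold change of the list was -1.03 and -0.45 in crypts on days 8 and 91 and -0.48 in villi on each day. That of all tested genes was -0.046 and 0 in crypts and -0.081 and 0.179 in villi.

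Of 16 interferon-induced genes, Irf1, a transcription factor of the interferon response, fell in all 4 sets, by 1.35 (adjusted p = 2.07e-05) and 1.67 (adjusted p = 6.85e-07) in crypts on days 8 and 91 and by 0.79 (adjusted p = 0.0631) and 1.95 (adjusted p = 3.73e-09) in villi. It was the only one called in day 8 crypts. Igtp, an interferon-gamma-induced GTPase, also fell in day 91 crypts (-1.75, adjusted p = 0.0687). In villi the list was mixed, with 2 higher and 1 lower on day 8, Oas1a (1.32, adjusted p = 0.0301) among the higher, and 3 higher and 2 lower on day 91, Gbp2 (2.36, adjusted p = 0.00507) among the higher.

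Proteins that work with the proteasome without a Psm symbol were read from a list of 17 tested genes. At 180 ppm, 2 rose in day 91 crypts and 4 in day 91 villi, and 0 were called on day 8. Sem1, a small lid subunit, rose by 0.96 ± 0.26 in crypt (adjusted p = 0.0189) and by 2.06 ± 0.29 in villus (adjusted p = 8.26e-08), and Txnl1, a thioredoxin-like protein bound to the cap, by 1.09 ± 0.28 (adjusted p = 0.00937) and 2.03 ± 0.31 (adjusted p = 3.86e-07). The list's median log2 fold change was 0.17 in day 91 crypt and 0.68 in day 91 villus, and that of all tested genes was 0 and 0.179. Of 17 genes that regulate proteasome expression or act in degradation of proteins from the endoplasmic reticulum, 3 rose in day 91 crypts and 7 in day 91 villi, and 1 fell in each compartment on day 8. The segregase Vcp, which extracts ubiquitinated proteins for the proteasome, rose by 0.93 ± 0.23 (adjusted p = 0.00625) and 1.26 ± 0.25 (adjusted p = 7.32e-05) on day 91, and the co-chaperone Bag3 by 1.30 ± 0.26 in villus (adjusted p = 7.48e-05). Nfe2l1, the transcription factor known to raise proteasome genes when proteasomes are inhibited, rose in day 91 villus (0.91 ± 0.24, adjusted p = 0.00516), and had 0.36 ± 0.22 in day 91 crypt (adjusted p = 0.472).

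Of 12 genes of ubiquitin and its conjugating enzymes, 4 rose in day 91 crypts, 1 in day 8 villi, 6 in day 91 villi, and 0 in day 8 crypts at 180 ppm. The conjugating enzymes Ube2n (1.27, adjusted p = 0.0119) and Ube2d3 (0.70, adjusted p = 0.0177) led in day 91 crypt, and Ube2k (1.84, adjusted p = 1.58e-05) and the ubiquitin fusion gene Rps27a (1.75, adjusted p = 2.08e-05) in day 91 villus. Of 12 Nrf2 targets, genes of the antioxidant response, 1 rose in day 8 crypt (Gclc, 1.36, adjusted p = 0.0228), 1 in day 91 crypt (G6pdx, 1.09, adjusted p = 0.0629), 1 in day 8 villus (Gsta1, 2.08, adjusted p = 0.000495), and 3 in day 91 villus, with Gsta1 (2.12, adjusted p = 0.000243) and Gclc (1.94, adjusted p = 0.00036) among them, while Gclm fell in day 8 villus (-0.94, adjusted p = 0.0921).

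Crypt and villus were then compared in untreated mice. On day 91, 8 members were higher in crypt and 0 higher in villus, where 10.6% of genes were called, 7.52% higher in crypt and 3.04% in villus. Psmg1 had 5.58, 9.82, 10.6, 14.1, and 15.3 CPM in crypt and 0, 0, 0, and 5.80 CPM in villus, a log2 difference of 3.03 (adjusted p = 0.00282). Psma1 had 40.7, 44.2, 50.5, 54.5, and 64.7 CPM in crypt and 3.17, 7.98, 24.1, and 25.2 CPM in villus (1.73, adjusted p = 0.00972). Psma1 did not overlap between compartments, and Psmg1 overlapped only between the lowest crypt and the highest villus. Psmb3 (0.74, adjusted p = 0.0198) and Psmc2 (1.11, adjusted p = 0.0483) were also higher in crypt, and Psmd7 had 84 counts in the crypts and 0 in the villi, at least 11.5-fold higher. With 1 mouse left out, Psmd7 stayed called in 1 of 5 fits (without mouse 8), and Psmc2 in 2 of 5 (without mouse 6 or 7). The Psmg1 difference was 8.242 without mouse 5. The other called members were Psma6, Psmc1, and Psmd1. The count was 3 with the number of detected probes as a covariate and 2 with the log10 of the total count as one, and 2 without mouse 5. On day 8, 0 members were called by edgeR and 0 by DESeq2 (0.205% of genes called). There 3 members and 4186 of all 26365 probes had an unadjusted p under 0.05.

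Whether the effect of 180 ppm differed between compartments or days was tested as a difference of effects. Between villus and crypt, Psmg1 differed on day 91 by 3.62 ± 0.89 on the log2 scale (adjusted p = 0.0556, 0.3% of genes called). It was 8.829 without mouse 5, whose villus held the only untreated counts, and the call was lost without mouse 3, 6, 488, or 490. With the mouse as a block, Psmg1 (4.54, adjusted p = 0.000171) and Psma1 (1.67, adjusted p = 0.0276) differed. In crypt, Psmg1 had 16.2, 23.3, 24.99, 25.9, and 28.9 CPM at 180 ppm on day 91, all above its untreated crypts, and the ranges of crypt and villus overlapped at 180 ppm. On day 8, 0 members differed between compartments by edgeR or by DESeq2 (0.0158% of genes called). There 3 members and 3251 of all 26365 probes had an unadjusted p under 0.05. Between day 91 and day 8, 0 members differed in crypt by edgeR (0.0842% of genes called) and 1 by DESeq2, and 4 members and 2504 probes had an unadjusted p under 0.05. In villus, Psmg1 differed by 3.43 ± 0.92 (adjusted p = 0.0517, 3.41% of genes called), or 8.74 without mouse 5. The probe with 7397 counts had 1.19 there (adjusted p = 0.655), and the one with 702 counts had 5.81 (adjusted p = 0.254). In day 8 villi Psmg1 had 5.36, 6.81, 8.88, 13.3, and 17.5 CPM untreated and 14.1, 16.4, 29.4, and 42.4 CPM at 180 ppm. For Psmb9, Psmb10, and the other members that fell, neither difference of effects passed the test, which does not show the effects to be equal.

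**Figure D4:**
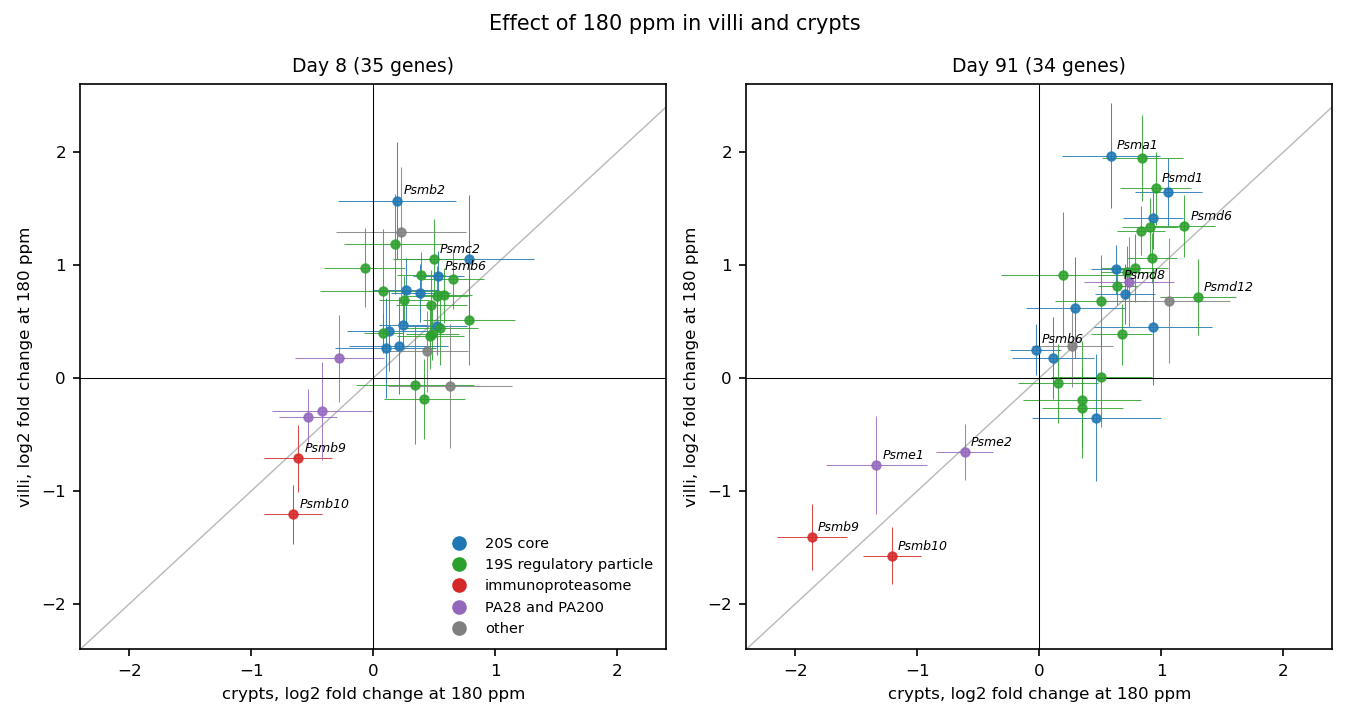
Log2 fold change at 180 ppm against untreated mice in villus (vertical axis) and in crypt (horizontal axis) on day 8 (35 genes) and day 91 (34 genes); bars are standard errors, colors are particles, and the diagonal marks equal effects. Genes with a standard error over 0.6 in either compartment are left out, 15 on day 8 and 16 on day 91, Psmg1 on day 91 among them; Psmb9 and Psmb10 lie below 0 on both axes.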

How the data were processed

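TempO-Seq libraries of microdissected crypt and villus were sequenced by the submitters, whose processing notes name bcl2fastq 2.17.1.14 and Bowtie (no version given), and the authors extracted reads per probe. The deposited values are raw counts per probe, not normalized, for 30146 probes. Compartment, concentration, day, and mouse were taken from the sample labels. The labels call the days 7 and 90, and nothing in them says more of how libraries of one group are separate than the mouse number, so p-values measure the spread between mice. All 50 members matched GENCODE M21 on GRCm38 by symbol, which gave the coordinates, and 42 had a RefSeq promoter.

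Here, one quasi-likelihood fit in edgeR 4.0.16 (R 4.3.3; limma 3.58.1) covered all libraries with a mean for each of the 28 groups, TMM factors, a trended dispersion, and edgeR's default filter by group, which left 26365 probes (18998 genes by their main probe). The p-values were Benjamini-Hochberg adjusted over all probes of a comparison, two-sided, and called at 0.1. Standard errors are the fold change over the root of F, and the prior count was 0.125. A ratio used 1 CPM as pseudocount. The depth of 1463938 to 7199801 counts sets the precision of counting. Standard errors and SDs include the spread between mice, whereas the floors used for groups without counts cover counting error only.

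Crypt and villus of the same mouse share a number because they come from the same animal. Over 7244 probes with a mean of at least 20 CPM, deviations of the 66 pairs from their group means had a median correlation of 0.257 (-0.268 to 0.719), over 0.1 in 54, and a fit with the mouse as a block was run for comparisons within mice. Concentrations and days were given to different mice.

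Alternatives were DESeq2 1.42.0, its size factors in edgeR, other count filters, another form of the quasi-likelihood fit, separate fits for each compartment and day, depth or detected probes as covariate, thinning to the smallest total, summed probes per gene, leaving out mice 48 and 49, each mouse in turn, and, added after seeing the data, 0.1 and 1.4 ppm as baseline. On counts simulated for 180 ppm in day 91 villi over 26365 probes, the fit recovered 43 of 100 probes changed 4-fold and 9 of 100 changed 2-fold, with 3 other probes called. Only those probes were changed, whereas 3669 probes were called in the data. The adjusted threshold was thus stricter in the simulation, and its rates do not give the power in the data. The members and gene lists were chosen with earlier results of these data known. Genes named with full values are the standard and inducible catalytic subunits, Psme1, and Psme2, for each compartment and day the 3 members of smallest adjusted p at 180 ppm, the 5 of smallest p between compartments, and members whose effects differed, plus the 2 leading genes of each list. Further called members are named to account for a count and were chosen after their values were seen.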

Additional observations from a re-analysis of the deposited data

Results flagged for a closer look

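In 74 combinations of a gene and a group of libraries, examined for a value far from the others, 5 such values were found. Normally distributed values would give about 1 in 20. That rate does not hold for Psmb8 and Psmg1 below, where the other libraries were at 0, and the combinations reuse the same libraries. The Psmb9 level of 56.45 CPM in the day 91 crypt of mouse 490 at 180 ppm was far above the next crypt of that group (34.15 CPM), yet below all untreated crypts. Psmc1 was 238.5 CPM in the untreated day 8 villus of mouse 48, with the next at 156.7 CPM, and this is the villus library with the crypt-like marker levels. In untreated day 91 villi, mouse 5 alone had counts for Psmg1 (5.803 CPM, with 0 in the others) and Psmb8 (11.6 CPM, with 0 in the others). Psmb8 was also found in only 1 day 91 villus at 180 ppm (4.552 CPM, mouse 483).

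The effect of 180 ppm on Psmg1 differed between villus and crypt on day 91 by 3.62 on the log2 scale and between day 91 and day 8 in villus by 3.433, each by a test of the difference itself. Both differences include the untreated day 91 villi, in which Psmg1 was at 0 in 3 of 4 libraries, and both calls were lost when mouse 3 or mouse 6, which gave 2 of those libraries, was left out. The first was also lost without mouse 488 or mouse 490, and the second without mouse 526. Without mouse 5, the differences were 8.829 and 8.74, values that depend on the prior count. No other probe of Psmg1 passed either test, with the values given above.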

How the results depend on the processing

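At 180 ppm, between compartments, and for differences of effects, counts of called members kept within 1.5 times the reported count unless given here. In day 8 crypts at 180 ppm (0 called), DESeq2 called 9, a mean count of at least 10, DESeq2's size factors, and summed probes 2 each, separate fits 1, detected probes as covariate 3, and the 0.1 and 1.4 ppm baseline 11. In day 91 crypts (14), separate fits gave 24. In day 8 villi (11), DESeq2 gave 17, separate fits 3, and leaving out mice 48 and 49 6. In untreated mice on day 91 (8), depth as covariate gave 2 and detected probes 3. For the difference of effects between compartments on day 91 (1), size factors, thinning, and summed probes gave 0 and the replicate block by mouse 2. For day 91 minus day 8, DESeq2 gave 1 in crypt (0) and separate fits 0 in villus (1). The replicate block changed no other call by over 1.5 times. Below 180 ppm, the alternatives gave 0 to 16 in day 91 crypts at 20 ppm (1), 0 to 6 and 2 to 12 in day 8 villi at 1.4 (1) and 60 ppm (8), and in day 91 villi 0 to 2 at 0.1 (2) and 1.4 ppm (1), 2 to 20 at 5 ppm (14), and 12 to 23 at 20 ppm (20), where the lowest at 5 and 20 ppm was with detected probes. Where 0 were called below 180 ppm, they gave 0 to 4. Leaving out mouse 406 gave 13 in day 91 crypts at 60 ppm (20). For the alternatives only members were counted, not the share of all genes called in the same fit. The causes were not tested.

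Leaving out 1 mouse gave 0 to 1 in day 8 crypts (1 without mouse 530), 10 to 16 in day 91 crypts, 3 to 11 in day 8 villi (3 without 528, 5 without 49 or 530, 6 without 46, 7 without 529), 15 to 19 in day 91 villi, 2 to 7 between compartments on day 91 (2 without mouse 5, 5 without 3 or 6), and 0 in day 8. Differences of effects gave 0 to 1 between compartments on day 91 (0 without 3, 6, 488, or 490), 0 on day 8 and between days in crypt, and 0 to 3 between days in villus (0 without 3, 6, or 526, 2 without 50, 3 without 7).

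Psmb9 and Psmb10 on day 91 in both compartments, Psmb10 and Psmc1 in day 8 villi, Psmc1 and Psmg1 in day 91 villi, and Psmd6 in day 91 crypts stayed called at 180 ppm in all 12 alternatives and with each mouse left out. Reversals concerned genes that were not called in the comparison concerned. Psmb5 turned to -0.01 with DESeq2 and -0.009 with its size factors in day 91 crypt, and to -0.15 and -0.154 in villus. Psmb6 turned to 0.015 (detected probes) and 0.166 (0.1 and 1.4 ppm baseline) in day 91 crypt, and to -0.042 and -0.043 (DESeq2, size factors) in villus, and Psmb7 to -0.279 (detected probes) in villus. With 1 mouse left out, Psmb5 ran from -0.049 to 0.349 and from -0.019 to 0.789, and Psmb6 from -0.232 to 0.071 in crypt. Psmb8, at a few counts, ran from -1.272 to 0.031 and -0.646 to 0.306 in crypts and from -0.694 to 1.599 and -6.386 to 4.845 in villi on days 8 and 91.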

Other observations

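Within groups, members of the core and regulatory particles varied together only loosely. Over the 20 of them with at least 20000 counts, the median correlation of deviations from the group mean was 0.218 over 190 pairs (over 71 crypt and 66 villus libraries, in which a shared depth and composition can move genes together), and over Psmb9, Psmb10, and Psme2 it was 0.418, while between the sets it was 0.038.

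The members called at 180 ppm had 9 other probes in day 91 crypts and 12 in day 91 villi, with each other probe of a gene counted. Of these probes, 6 and 8 had the sign of the main probe, and 0 and 1 passed the test in its direction, mostly at far fewer counts. The other probe of Psmb10 (1545 counts, with 39514 for the main probe) had the opposite sign, 1.35 in crypt (adjusted p = 0.813) and 1.48 in villus (adjusted p = 0.621). The other probe of Psmd2 (34297 counts, with 40013) was called in day 91 villi at 1.05 (adjusted p = 0.0184), where the main probe had 0.39 (adjusted p = 0.353). For members called at 60 ppm on day 91, 8 of 13 other probes in crypts and 7 of 12 in villi had the main probe's sign. In day 91 villi, 5 of 10 had it at 20 ppm and 3 of 5 at 5 ppm, and 0 passed in its direction at either. At 20 ppm, 1 other probe passed the test in the opposite direction. Psme2b is a copy of Psme2, and whether the probes tell the genes apart was not tested.

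Members with tissue-restricted roles were near the floor of detection. Psmb11 had 368 counts and Psma8, a testis alpha subunit, 771 over all libraries, and neither was called against untreated mice.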
